A study of Mus musculus with 6 samples.

Results

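The 7 genes described here encode protamines, transition proteins and spermatid linker histones, most of which package DNA in the maturing sperm head. They are the protamine genes Prm1, Prm2 and Prm3, the transition protein genes Tnp1 and Tnp2, and the spermatid linker histone genes H1fnt and Hils1. They were taken by gene symbol from the deposited count tables, where all 7 of them were listed among the 21786 symbols shared by the 6 libraries. Poly(A) RNA of whole testes was sequenced from 3 Stra8 -/- males aged 1 year, whose testes were grossly enlarged, and from 3 Stra8 +/+ males aged 2 to 4 months with normal testes, with C57BL/6 as the strain background throughout. Stra8 is switched on by retinoic acid, and without it germ cells do not go through meiosis. Per the labels, type A spermatogonia-like cells fill most of the Stra8-deficient testis. The study measured mRNA levels in each genotype. Age and testis size went with genotype and cannot be told apart from it, and in whole tissue fewer cells of a type and less RNA per cell cannot be told apart either.

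Spermatids, the haploid cells that follow meiosis, shape the sperm nucleus by exchanging their proteins on DNA. Transition proteins take the place of most histones and are in turn replaced by protamines, which are rich in arginine and fold DNA into its most compact form. The mRNAs of these proteins are made in round spermatids, held in storage without translation and used days later in elongating spermatids. They serve as markers of haploid germ cells. Whether the few reads in Stra8-deficient testes come from such cells was not tested. In the mouse, Prm1, Prm2, Prm3 and Tnp2 lie next to each other on chromosome 16, while Tnp1 is on chromosome 1, H1fnt on chromosome 15 and Hils1 on chromosome 11.

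The bases just before the transcription start are shown for the 4 genes with the most reads in wild-type testes, since these genes were high together in one genotype and nearly unread in the other. The GENCODE starts of Prm1, Tnp1 and Tnp2 lie further upstream, inside their windows. Each run gives the 250 bases before the RefSeq start of the gene, on build GRCm38.p6, read 5′ to 3′ on the strand of the gene. Capitals mark TGANNTCA, the outline of the cyclic AMP response element, and the TATA-like letters TATAAA and TATATA, searched on both strands.
Prm1 (chr16:10796824-10797073, minus strand): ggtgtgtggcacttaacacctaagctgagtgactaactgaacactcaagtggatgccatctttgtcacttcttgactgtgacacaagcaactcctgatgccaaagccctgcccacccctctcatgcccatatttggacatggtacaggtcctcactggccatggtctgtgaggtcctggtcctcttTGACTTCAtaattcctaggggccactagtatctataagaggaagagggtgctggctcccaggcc
Prm2 (chr16:10792106-10792355, minus strand): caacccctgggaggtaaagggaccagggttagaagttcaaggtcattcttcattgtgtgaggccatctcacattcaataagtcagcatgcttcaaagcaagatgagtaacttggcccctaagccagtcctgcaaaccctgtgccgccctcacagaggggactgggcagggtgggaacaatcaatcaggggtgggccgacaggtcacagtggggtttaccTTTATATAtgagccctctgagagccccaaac
Tnp1 (chr1:73015900-73016149, minus strand): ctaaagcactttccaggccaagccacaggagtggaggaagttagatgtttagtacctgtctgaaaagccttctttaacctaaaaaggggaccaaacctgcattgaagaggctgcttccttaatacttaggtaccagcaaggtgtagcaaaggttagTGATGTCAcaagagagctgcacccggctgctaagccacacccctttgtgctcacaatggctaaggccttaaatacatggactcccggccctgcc
Tnp2 (chr16:10788656-10788905, minus strand): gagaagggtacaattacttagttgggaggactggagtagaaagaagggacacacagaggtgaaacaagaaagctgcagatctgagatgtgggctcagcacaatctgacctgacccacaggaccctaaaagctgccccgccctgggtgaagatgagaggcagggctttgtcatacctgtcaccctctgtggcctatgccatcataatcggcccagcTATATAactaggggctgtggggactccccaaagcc

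The letters before the starts differed among the genes. The full response element TGACGTCA was found in 0 of the 7 windows and in 1.55% of 32851 promoter windows of the same length. The looser TGANNTCA, chosen after the sequences had been seen, occurred in 3 of the 7, namely as TGACTTCA 64 bases before the start of Prm1, as TGATGTCA 94 bases before that of Tnp1 and as TGAGGTCA 60 bases before that of Prm3, and in 11.9% of all windows. Distances are to the RefSeq starts, and the GENCODE start of Prm1 falls inside its TGACTTCA match. TATATA occurred before Prm2 and Tnp2, 29 and 35 bases before the start, and in 5.25% of all windows. TATAAA, on the opposite strand and overlapping the TATATA match, occurred before Prm2 alone of the 7, and in 12.4% of all windows. CCAAT was found before Prm3 and, on the opposite strand, before Hils1, and in 33.8% of all windows. A match of letters describes these windows and does not show that a factor binds there.

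Libraries held 7883466, 8561174 and 12425689 gene reads in the Stra8-deficient testes and 7910732, 8937224 and 6733128 in the wild-type testes. Levels are CPM, reads of a gene relative to the library's TMM-scaled total, where TMM adjusts for library composition. Its factors ranged over 1.21 to 1.27 for Stra8-deficient libraries, against 0.796 to 0.813 for wild type. The third Stra8-deficient library was counted on a longer gene list, which holds the 7 genes as well. Tissue identity was checked by marker lists. The 8 round spermatid markers summed to 12.3 to 18.7 CPM in Stra8-deficient and 2098 to 2245 CPM in wild-type libraries, and the 8 elongating spermatid markers to 89.9 to 114 CPM in Stra8-deficient and 17400 to 19094 CPM in wild-type libraries. The 8 spermatocyte markers summed to 177 to 201 CPM in Stra8-deficient and 5531 to 6403 CPM in wild-type libraries. In wild type most of that sum was Ldhc and Pgk2, genes of late spermatocytes and spermatids. The early meiotic markers Sycp1 (log2 fold change -0.03 ± 0.19, SE) and Hormad1 (-0.29 ± 0.44) were not called, and Sycp3 was called lower at -0.39 ± 0.16. Spo11 (-3.74 ± 0.22), Meiob (-3.00 ± 0.35) and Ccna1 (-6.12 ± 0.25) of the same list fell further. The 9 spermatogonial markers summed to 2257 to 3663 CPM in Stra8-deficient and 150 to 166 CPM in wild-type libraries, although Id4 among them fell (-2.76 ± 0.21). Markers of the other cells varied among the Stra8-deficient testes: 6 Leydig cell markers summed to 324, 18.4 and 2676 CPM in the 3 libraries, against 747 to 1228 CPM in wild type, and the 7 Sertoli markers found summed to 213, 88.3 and 669 CPM in Stra8-deficient libraries, against 1571 to 1756 CPM in wild type. The 3 peritubular markers summed to 31.9 to 131 CPM in Stra8-deficient and 112 to 118 CPM in wild-type libraries. The 6 macrophage markers summed to 332 to 1001 CPM in Stra8-deficient and 24.4 to 34.1 CPM in wild-type libraries. Stra8 had 211, 249 and 270 reads in Stra8-deficient and 120, 132 and 93 reads in wild-type libraries, and since the deleted part of the gene is not given in the sources used here, these counts do not check the labels. The part of these cells in the results that follow was not tested.

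The 7 genes were among the most read of the normal testis and nearly unread in the Stra8-deficient testis. They took 98, 24 and 64 reads in the Stra8-deficient libraries, against 156015, 173674 and 115047 reads in the wild-type libraries. They made up 0.000680 ± 0.000502% of gene reads in Stra8-deficient libraries and 1.87 ± 0.145% in wild-type libraries (SD, n = 3 each). Counted by reads, Prm2, Tnp2 and Prm1 ranked 1, 2 and 3 of 21786 genes in the wild-type libraries, Tnp1 ranked 11, H1fnt 132, Hils1 228 and Prm3 1229. In the Stra8-deficient libraries the highest of the 7 by reads was Tnp1, at rank 11674. All 7 fell in the quasi-likelihood test of edgeR, at a threshold of 0.05 on the Benjamini-Hochberg adjusted p over 15018 genes, and the same test called 36.7% of all genes tested lower and 75.8% in either direction. Their groups did not overlap, which held in the same direction for 39.4% of genes tested. All 7 passed the filter on low counts, 6 of them through the wild-type libraries alone, so that for these 6 a fall was the one outcome open. Tnp1 was over the filter's cutoff of 1.22 CPM, before TMM scaling, in the Stra8-deficient libraries as well. The median log2 fold change of the 7 was -13.20 with the genes without reads at their fitted values and -13.10 with them at their bounds, and that of all genes tested was 0.11.

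**Figure D1:**
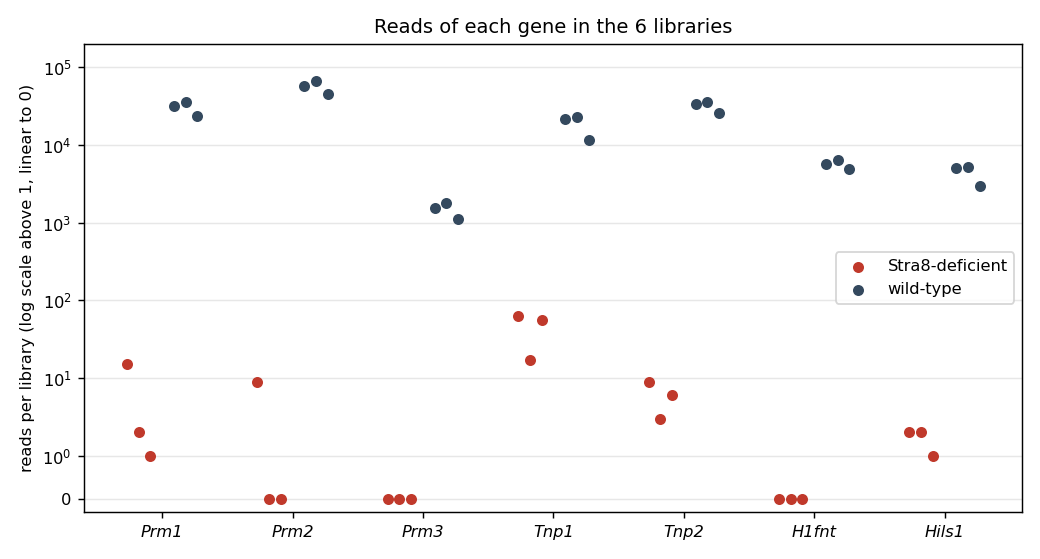
Reads of each of the 7 genes (vertical axis, log scale above 1 and linear to 0) in each library, with the 3 Stra8-deficient libraries in red left of the 3 wild-type libraries in dark blue. The highest Stra8-deficient point is Tnp1 with 63 reads, and the lowest wild-type point is Prm3 with 1121 reads.

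Of the protamines, Prm1 and Prm2 left a few reads in Stra8-deficient testes, most of them in the first library, and Prm3 left none. Prm1, the protamine found in the sperm of all mammals, was covered by 15, 2 and 1 reads in Stra8-deficient testes and by 31952, 35651 and 23522 reads in wild-type testes. That is 1.51, 0.191 and 0.0670 CPM in Stra8-deficient testes against 4989, 5034 and 4315 CPM in wild-type testes. The groups were far apart, and the first Stra8-deficient library was the highest of its group. The log2 fold change was -13.10 ± 0.76 (SE; edgeR, adjusted p = 6.63e-07), and of the 18 Stra8-deficient reads 15 lay in the first library. Pooled over the libraries, Prm1 stood at 0.0106% of its wild-type level (95% counting interval 0.00626 to 0.0167%). This was 0.00245% (95% counting interval 0.000506 to 0.00717%) without the first and 0.0173% without the third Stra8-deficient library.

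Prm2, which is made as a precursor and trimmed on DNA, was covered by 9, 0 and 0 reads in Stra8-deficient testes and by 56813, 66280 and 45419 reads in wild-type testes. It averaged 0.301 ± 0.522 CPM in Stra8-deficient and 8853 ± 514 CPM in wild-type testes (SD, n = 3 each), with a log2 fold change of -14.97 ± 0.85 (SE; edgeR, adjusted p = 5.79e-07). All of its Stra8-deficient reads came from the first library. Pooled over all libraries Prm2 was 34987-fold lower. With the first Stra8-deficient library left out, no read remained against 168512 wild-type reads, which put Prm2 at least 75414-fold lower, taking 3 counts over the remaining libraries as the limit. With the third left out it was 20226-fold lower.

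Prm3 lies between Prm2 and Tnp2 and encodes an acidic protein that, unlike the other protamines, is not known to package DNA. It had 0 reads in each Stra8-deficient library and 1527, 1787 and 1121 reads in the wild-type libraries, or 232 ± 24.0 CPM (SD, n = 3). It was read in every wild-type library and in no Stra8-deficient library. It was at least 2762-fold lower, again with 3 counts over the 3 libraries as the limit (edgeR, adjusted p = 1.42e-07), and at least 1597-fold lower without the third and deepest Stra8-deficient library. Prm3 was the least read of the 7 in wild type, which makes its bound looser than that of H1fnt.

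Of the transition proteins, Tnp1 kept the most reads. Tnp1, a small arginine- and lysine-rich protein, was covered by 63, 17 and 56 reads in Stra8-deficient testes and by 21543, 22656 and 11497 reads in wild-type testes. Its levels were 6.32, 1.62 and 3.75 CPM in Stra8-deficient against 3364, 3199 and 2109 CPM in wild-type testes. The groups did not overlap, and the third wild-type library was the lowest of its group. The log2 fold change was -9.54 ± 0.54 (SE; edgeR, adjusted p = 4.34e-07), the value nearest 0 of the 7 genes. Tnp2, a zinc-binding partner that lies beside the protamine genes, was covered by 9, 3 and 6 reads in Stra8-deficient testes and by 33301, 35621 and 25532 reads in wild-type testes. Its log2 fold change was -13.20 ± 0.40 (SE; edgeR, adjusted p = 2.71e-08), with 0.530 ± 0.328 CPM in Stra8-deficient and 4971 ± 263 CPM in wild-type testes (SD, n = 3 each). Tnp2 was read in every Stra8-deficient library, and its reads were spread more evenly over them than those of Prm1 or Prm2.

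The spermatid linker histones were at or near 0. H1fnt, a linker histone that gathers at the tip of the spermatid nucleus and is needed for its elongation, was unread in all 3 Stra8-deficient libraries and had 5770, 6399 and 4969 reads in the wild-type libraries. It was at least 10675-fold lower (edgeR, adjusted p = 7.27e-08), or at least 6171-fold lower without the third Stra8-deficient library. Of 259 tested genes without a read in the Stra8-deficient libraries, 1 had more wild-type reads than H1fnt and 24 had more than Prm3. Hils1, a linker histone of condensing spermatid nuclei, was covered by 2, 2 and 1 reads in Stra8-deficient testes and by 5109, 5280 and 2987 reads in wild-type testes. It was read in every library, and the groups did not overlap. Its log2 fold change was -12.12 ± 0.38 (SE; edgeR, adjusted p = 2.71e-08), and its 5 reads gave 0.0200% of the wild-type level (95% counting interval 0.00649 to 0.0467%).

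The genes differed in how much was left. Tnp1 stood at 0.131% of its wild-type level (95% counting interval 0.110 to 0.155%), Tnp2 at 0.0102% (0.00604 to 0.0161%) and Prm2 at 0.00286% (0.00131 to 0.00543%), so the interval of Tnp1 lay above those of Prm1, Prm2, Tnp2 and Hils1, also with any 1 Stra8-deficient library left out. The interval of Prm2 lay below those of Prm1 and Tnp2, but not with any 1 Stra8-deficient library left out. It reached 0.00771% without the second library, against lower bounds of 0.00764% for Prm1 and 0.00676% for Tnp2. It reached 0.00939% without the third, against 0.00608% for Tnp2, and without the first its limit of 0.00133% was over the lower bound of Prm1, 0.000506%. For genes without reads, 3 counts set a limit of 0.00937% for H1fnt and 0.0362% for Prm3. The limit of H1fnt lies inside the intervals of Prm1, Tnp2 and Hils1 and above that of Prm2, and that of Prm3 lies above the intervals of Prm1, Prm2 and Tnp2 and inside that of Hils1, so at this depth neither gene can be placed among those. These intervals take in counting error and nothing else, as the libraries carry no molecular identifiers and 1 molecule can give several reads. Taken library by library, Tnp1 was at 0.219, 0.0560 and 0.130% of its wild-type mean, and in each library it was the highest of the genes with reads there. Genes unread in a library were left out of this order. Next came Prm1 in the first library (0.0315%, 15 reads) and Hils1 in the second (0.0273%, 2 reads) and in the third library (0.00961%, 1 read). Tnp2 stood at 0.00808% with 6 reads in the third library, so these places of Hils1 are uncertain. Set against the 378 genes with at least 10000 wild-type reads, whose median was 5.12% of the wild-type level, 78 had a lower ratio than Tnp1, 39 a lower one than Hils1, 28 than Prm1, 27 than Tnp2 and 8 than Prm2. Of the 378, 6 genes, H1fnt among them, had no Stra8-deficient read.

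**Figure D2:**
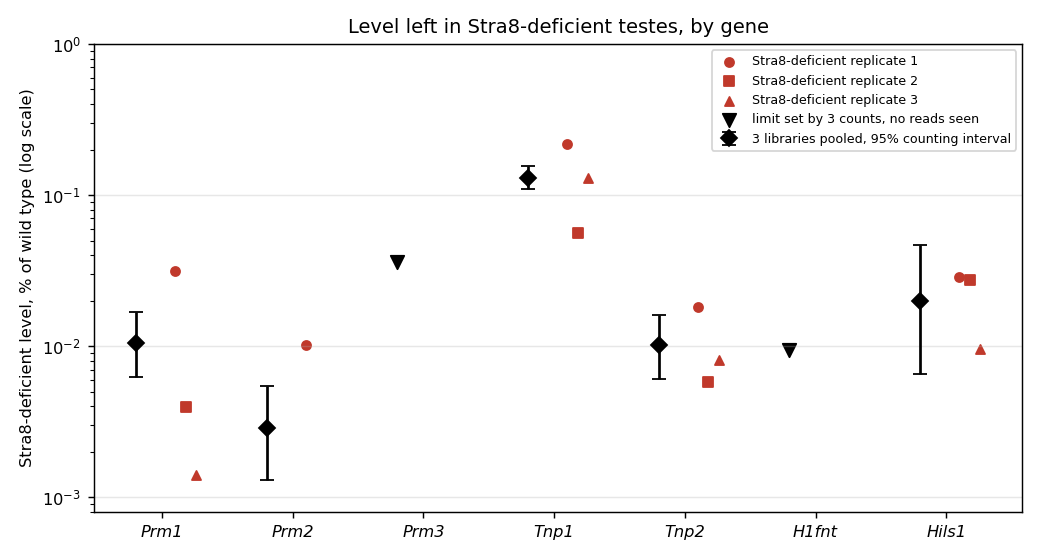
Level in Stra8-deficient testes as a percentage of wild type (log scale), by gene. Diamonds pool the 3 libraries and carry 95% counting intervals, triangles pointing down are the limits for the genes without reads, and red marks are single libraries with at least 1 read, with Tnp1 highest in each of them.

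Tnp1 took a larger share of the reads of the 7 genes in every Stra8-deficient library than in any wild-type library. Tnp1 gave 64.3, 70.8 and 87.5% of the reads of the 7 genes in the Stra8-deficient libraries, against 13.8, 13.0 and 9.99% in the wild-type libraries. The Wilson 95% intervals in the Stra8-deficient libraries were 54.4 to 73.1%, 50.8 to 85.1% and 77.2 to 93.5%, all above the wild-type values. With 3 libraries of each genotype, an exact two-sided permutation test of a share cannot give p below 0.1, so the shares are given as a description. The share of Hils1 overlapped between the genotypes. Prm2 gave 9.18% of the reads in the first Stra8-deficient library and 0 of 24 and 0 of 64 reads in the others, against 36.4, 38.2 and 39.5% in the wild-type libraries. The reads of Prm2 per read of Prm1 numbered 0.600 in the first Stra8-deficient library and 1.78, 1.86 and 1.93 in the wild-type libraries. Tnp2 reads per Tnp1 read numbered 0.143, 0.176 and 0.107 in Stra8-deficient and 1.55, 1.57 and 2.22 in wild-type libraries, and the groups did not overlap. The few reads left in the Stra8-deficient testes were mostly Tnp1, while those of wild type were mostly Prm2, Tnp2 and Prm1.

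**Figure D3:**
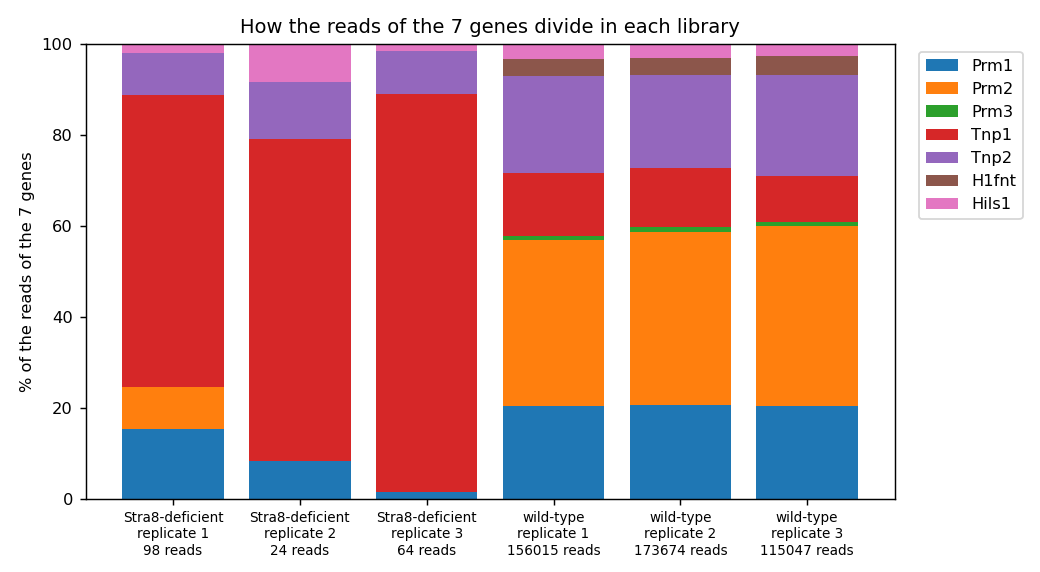
Share of the reads of the 7 genes (vertical axis, percent) that each gene took in each library, Stra8-deficient left and wild type right, with the number of reads under each bar. Tnp1 fills 64.3 to 87.5% of the Stra8-deficient bars, which rest on 98, 24 and 64 reads, and 9.99 to 13.8% of the wild-type bars.

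Spermatid markers ordered the Stra8-deficient libraries in more than one way. The 7 genes summed to 9.84, 2.29 and 4.29 CPM in the 3 libraries, highest in the first, while the elongating spermatid markers summed to 89.9, 97.1 and 114 CPM and the round spermatid markers to 12.3, 18.7 and 14.5 CPM. Most of the elongating sum was Odf2, a gene of the sperm tail that other cells use at their centrosomes, with 808, 922 and 1578 Stra8-deficient reads. Without Odf2, a choice made after its values were seen, the elongating markers summed to 8.83, 9.24 and 7.97 CPM. Akap4, with 16, 7 and 4 reads in the Stra8-deficient libraries, was highest in the first of them. Smcp, with 5, 0 and 3 reads, and the acrosomal protease gene Acr, with 4, 0 and 1 reads, were highest there too. These 3 markers were picked after their values were seen, and by CPM no other listed spermatid marker was highest in that library. Odf1, Odf2, Gapdhs, Oaz3, Akap3, Tssk1, Tssk2, Spaca1, Izumo1, Catsper3 and Acrv1 were each highest in another Stra8-deficient library. Of the listed markers, Spata3 (elongating) and Catsper1 (round) had 0 reads in every Stra8-deficient library. The part of remaining spermatids in these reads was not tested.

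Per length of transcript, the wild-type levels fell into a high and a low set. Prm2 averaged 14257 ± 827 CPM per kilobase, Prm1 10190 ± 859, Tnp2 8973 ± 475 and Tnp1 6614 ± 1560 CPM per kilobase (SD, n = 3 each). Hils1 followed at 807 ± 153, H1fnt at 692 ± 4.20 and Prm3 at 566 ± 58.5 CPM per kilobase. With GENCODE lengths, Prm1 and Tnp2 overlapped over the 3 libraries, as did Hils1 and H1fnt, while the other neighbours in this order did not. The GENCODE start of Prm1 lies upstream of its RefSeq start, and a shorter transcript would raise its values. The overlap of Prm1 with Tnp2 therefore depends on the annotation. Lengths are those of the GENCODE transcripts (410 bases for Prm3 to 1308 for H1fnt), and in short transcripts the ends weigh heavily on such values. Prm1, Prm2, Tnp1 and Tnp2 have 2 exons each, and Prm3, H1fnt and Hils1 have 1.

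Among the wild-type testes themselves, Tnp1 and Hils1 varied most of the 7. The third wild-type library held 0.643 of the mean Tnp1 level of the other wild-type libraries and 0.710 of their Hils1 level, against 0.861 for Prm1, 0.914 for Prm2, 0.838 for Prm3, 0.916 for Tnp2 and 1.01 for H1fnt. The coefficient of variation over the 3 libraries was 23.6% for Tnp1 and 18.9% for Hils1. Of 3053 other genes with at least 100 CPM in wild type, whose median was 5.22%, 99.4% had a lower value than Tnp1 and 98.8% a lower one than Hils1. H1fnt lay at the opposite end with 0.607%, and 1.08% of those genes had a lower value. Tnp2 was at 5.29%, Prm2 at 5.80%, Prm1 at 8.43% and Prm3 at 10.3%. The labels give wild-type ages as a range, and whether age goes with these values was not tested.

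**Figure D4:**
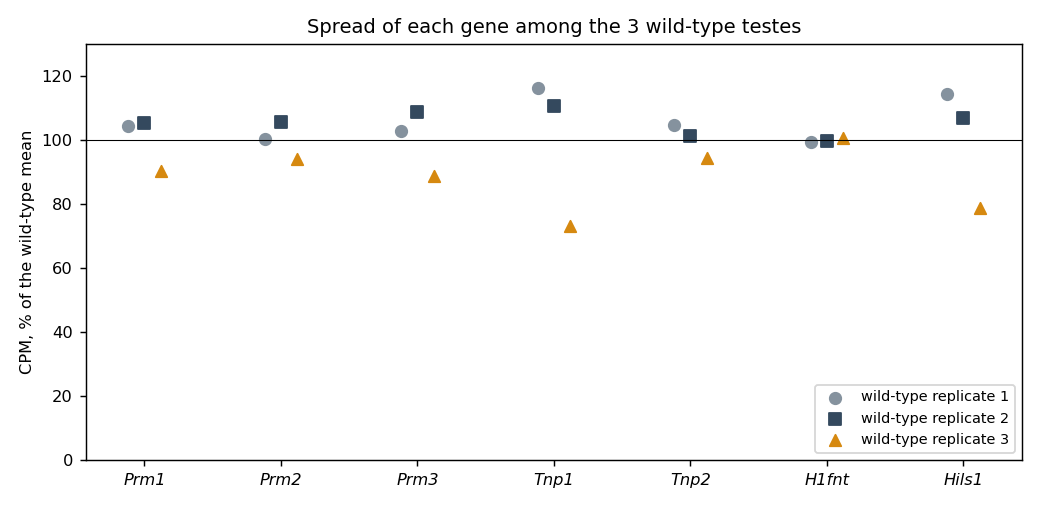
Level of each gene in each of the 3 wild-type libraries as a percentage of its wild-type mean. The third library, shown as orange triangles, is low for Tnp1 and Hils1, while the 3 points of H1fnt nearly coincide.

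Of 4 neighbours examined, 3 by the chromosome 16 cluster and 1 around Hils1, 2 fell and 2 rose. Among all genes tested, 36.7% were called lower and 39.0% higher. No neighbour of Tnp1 or H1fnt was examined. Tnp2, Prm3, Prm2 and Prm1 lie in 8.95 kb on the minus strand of chromosome 16 (GRCm38, GENCODE M21), with Tnp2 at chr16:10787936-10788660, Prm3 at chr16:10790505-10790914, Prm2 at chr16:10791380-10792105 and Prm1 at chr16:10796326-10796886, each as its main transcript. Socs1, which encodes a brake on cytokine signalling, has its start 2399 bases from the end of Tnp2 on the same strand. Socs1 was covered by 303, 113 and 323 reads in Stra8-deficient testes and by 50, 64 and 32 reads in wild-type testes, without overlap of the groups, and it rose with a log2 fold change of 1.46 ± 0.39 (SE; edgeR, adjusted p = 0.00719). Further along, Clec16a, an endosomal protein gene, fell (-1.68 ± 0.18; edgeR, adjusted p = 2.39e-05), and Dexi rose (0.90 ± 0.37; edgeR, adjusted p = 0.0493), a call lost under 7 of the 14 alternatives. Those 7 were RLE scaling, DESeq2, the replicate block and leaving out the first Stra8-deficient or any wild-type library. Dexi had 332, 156 and 200 reads in Stra8-deficient testes and 68, 73 and 66 reads in wild-type testes, and without the first Stra8-deficient library its log2 fold change was 0.33. Hils1, at chr11:94967593-94968456 on the plus strand, lies inside an intron of 4 of the 5 annotated transcripts of Sgca, the alpha-sarcoglycan gene of muscle, and shares 0 bases with its exons. Sgca had 3, 2 and 3 reads in Stra8-deficient and 116, 129 and 79 reads in wild-type libraries and fell as well (-6.14 ± 0.38; edgeR, adjusted p = 8.01e-07). Strand handling of the counts is not stated, so reads of transcripts that overlap either gene on the opposite strand cannot be told apart.

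Genes that make and store protamine mRNA mostly fell with it. Of 20 genes listed for transcription, storage and translation of these mRNAs, 16 fell, 3 rose and 1 was not called, with a median log2 fold change of -4.54 beside 0.11 for all genes, where 36.7% were called lower and 39.0% higher. Pabpc2, a testis poly(A)-binding protein, had the lowest log2 fold change at -11.86 ± 0.40 (SE, as for the fold changes of genes outside the 7 that follow), followed by Tdrd6, a component of the chromatoid body of spermatids, at -9.70 ± 0.29. Taf7l, a germ cell variant of a general transcription factor subunit, rose by 3.76 ± 0.17 on the log2 scale, with 634 ± 37.9 CPM in Stra8-deficient testes, against 46.8 ± 1.38 CPM in wild-type testes (SD, n = 3 each). Paip2, which restrains poly(A)-binding protein, rose by 1.22 ± 0.20. Genes picked after their values were seen, for their known tie to protamine genes, were the activators Crem (-4.32 ± 0.28) and its partner Fhl5 (-9.50 ± 0.34) and the mRNA-storing Y-box proteins Ybx2 (-8.54 ± 0.29) and Csda (-6.17 ± 0.22). On the same list Tbpl1 fell by less (-1.23 ± 0.19) and Brwd1 rose (1.12 ± 0.18). Ybx2 averaged 5.53 ± 1.33 CPM in Stra8-deficient and 2063 ± 170 CPM in wild-type testes, and Csda averaged 28.6 ± 3.80 CPM in Stra8-deficient and 2052 ± 135 CPM in wild-type testes (SD, n = 3 each). The 1 gene not called was Tarbp2, needed for protamine translation in the mouse (-0.19 ± 0.27; edgeR, adjusted p = 0.549).

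Genes for the removal and remodelling of histones moved in both directions. Of 20 listed genes, 11 fell, 4 rose and 5 were not called, and the median log2 fold change was -0.71. The number called in either direction is near the background, since 75.8% of all genes tested were called so. By direction, 36.7% of all genes tested were called lower and 39.0% higher. Hspa2, a germ cell chaperone known to carry transition proteins, had the lowest log2 fold change (-7.08 ± 0.26), with 16.9 ± 3.35 CPM in Stra8-deficient and 2292 ± 189 CPM in wild-type testes (SD, n = 3 each). Chd5, a chromatin remodeller of spermatids, was next at -4.29 ± 0.23. Parp2, a poly(ADP-ribose) polymerase, and Rnf8, a ubiquitin ligase that acts on histones, rose by 1.33 ± 0.21 and 1.20 ± 0.19. Psme4, a proteasome activator for acetylated histones (-3.24 ± 0.24), Camk4, a kinase of protamine (-2.65 ± 0.26), and Brdt, a reader of acetylated histones (-1.61 ± 0.18), were lower and were picked after their values were seen. With library size alone in place of TMM scaling, 9 of the 20 fell and 7 rose. Over all genes, that scaling gave 4326 lower and 7550 higher, against 5519 and 5860 with TMM.

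Of the remaining linker histones and testis histones, 10 of 16 had enough reads for a test, with 6 lower, 1 higher and 3 not called, and a median log2 fold change of -0.80. Here too the number called in either direction is near the 75.8% of all genes. By direction, 36.7% of all genes tested were lower and 39.0% higher. H2afb1, a short histone variant of the testis, had 2, 0 and 0 reads in Stra8-deficient and 1039, 1050 and 655 reads in wild-type libraries. Its fitted log2 fold change, which rests on 2 Stra8-deficient reads, was -10.99 ± 0.50 (SE; edgeR, adjusted p = 1.24e-07). Hist1h1t, the linker histone of spermatocytes, fell by 3.37 ± 0.45, while H1f0, a linker histone of cells that have stopped dividing, rose by 1.98 ± 0.17. Hist1h1t had 32 reads in Stra8-deficient and 179 in wild-type libraries. With library size alone, 3 fell and 3 rose, while over all genes 4326 fell and 7550 rose. The mRNA of most clustered histone genes has no poly(A) tail and near-identical copies share reads, so these counts are uncertain.

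**Figure D5:**
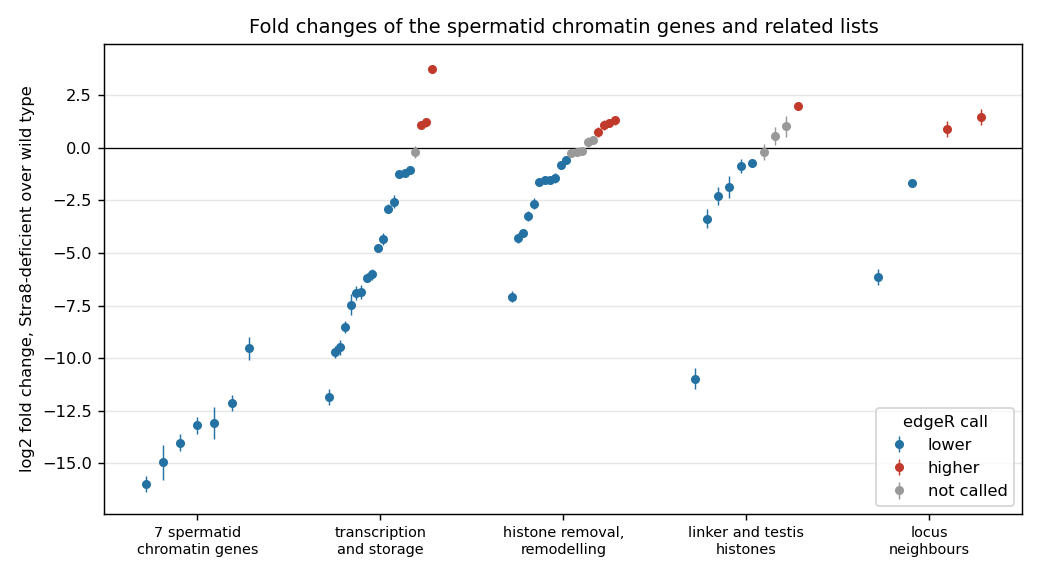
Log2 fold change, Stra8-deficient over wild type, with its standard error for each tested gene, in 5 groups and coloured by edgeR's call. The 7 spermatid chromatin genes lie between -16.00 and -9.54, with H1fnt and Prm3 at fitted values that are not bounds, and the other lists spread across 0.

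Outside the 7, the genes nearest to each in log2 CPM over the 6 libraries included several known from the sperm tail and testis. By Euclidean distance, Prm1 was nearest to Akap4, a scaffold of the sperm tail sheath (distance 1.91), Prm2 to Smcp, a protein of the sperm mitochondrial capsule (3.18), Tnp1 to Tcp11 (1.48), Tnp2 to Gsg1 (1.66) and Hils1 to Tsks, a substrate of testis kinases (0.522). H1fnt was nearest to 1700016M24Rik (0.417) and Prm3 to 1700012A03Rik (0.128), both with 0 Stra8-deficient reads. Among the 7, Prm1 was closer to Tnp2 (1.31) than to Akap4, and Prm2 was closer to Prm1 (1.93) than to Smcp, while Tnp1 was at 4.38 or more from each of the others. Tcp11 had 42, 21 and 22 reads in Stra8-deficient and 17267, 19880 and 15110 in wild-type libraries. With 6 libraries in 2 genotypes, such likeness follows from the level in each genotype.

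In the authors' deposited table, Prm2 and Tnp2 ranked 1 and 2 of 19119 genes by p, with log2 ratios of -15.04 and -13.24, and Prm1 and Tnp1 had -13.12 and -9.54. The authors' deposited table gives -39.41 for H1fnt and -37.44 for Prm3, the genes with 0 Stra8-deficient reads, where a ratio has no finite value, so these are not sizes of change.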

How the data were processed

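Poly(A) RNA of 3 Stra8-deficient and 3 wild-type whole testes was sequenced after the Illumina mRNA-Seq kit, per the labels' protocols. TopHat, HTSeq and edgeR, with genome build mm9, are named in the submitters' processing notes; which versions, annotation and strand setting served is not given in the sources used here. Deposited counts are whole raw reads for each gene symbol. The authors' deposited table gives log2 ratios and p-values.

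HTSeq's counters of reads outside genes, 20.9% to 34.5% of reads, were left out. Of the symbols, 21786 were in all 6 files, with 99.3% to 99.7% of gene reads; 1499 were in the third Stra8-deficient file alone and 269 in the other 5 alone. Genes were filtered with filterByExpr (15018 kept), scaled by TMM and tested with edgeR 4.0.16 (quasi-likelihood F test, robust) in R 4.3.3, genotype as the one term, Benjamini-Hochberg threshold 0.05. The standard error is the size of the log2 fold change over the square root of F. The script was tested on simulated data. With 0 reads, a fold is a bound against 3 counts over the pooled Stra8-deficient libraries. In a single Stra8-deficient library 3 counts are 0.201 to 0.301 CPM. The 95% intervals of ratios are exact conditional ones. Log2 CPM used a prior count of 2. Builds differ, so coordinates (GENCODE M21, RefSeq) are GRCm38 and served for description. Kat8 and Meiob were matched by older symbols and Rhox5 was not matched. Named genes were the 7, their neighbours, up to 2 called genes per direction of each list, and the nearest gene to each of the 7; others are marked. The members and lists were chosen with earlier results of these data known. The series text describes 3 males of each genotype, taken as separate animals.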

Additional observations from a re-analysis of the deposited data

How the results depend on the processing

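All 7 genes were called lower under each of the 14 alternatives (RLE, library size or upper-quartile scaling, no filter, DESeq2, edgeR's exact test, the replicate block, totals without their own reads, and each library left out). In the main fit 6 of the 7 passed the filter through the wild-type libraries alone, so a fall was their one open outcome. Of all genes, 5519 were called lower in the main fit (36.7% of those tested) and 4326 to 6033 under the alternatives. Log2 fold changes ranged from -15.17 to -12.46 for Prm1, -10.06 to -8.91 for Tnp1, -13.76 to -12.59 for Tnp2 and -12.39 to -11.53 for Hils1, each lowest without the first Stra8-deficient library. The highest value for Prm2 was -14.25, and without the first Stra8-deficient library Prm2 had 0 reads, so its value there is a bound only, at least 75414-fold lower. Prm3 and H1fnt have no Stra8-deficient read under any alternative and are given as bounds only, which were lowest without the third Stra8-deficient library, at least 1597-fold for Prm3 and 6171-fold for H1fnt. Calls over all genes numbered 11379, and 10357 to 12303 under the alternatives. Higher genes were 51.5% of calls with TMM and 63.6% with library size alone, and the median of all genes moved to 0.73.

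With library size alone the histone removal list had 7 called higher in place of 4, and the linker and testis histone list 3 lower in place of 6 and 3 higher in place of 1. That last count was 2 with upper-quartile factors, and 1 to 2 when a library was left out. Of the locus neighbours 1 in place of 2 was called higher with RLE (Dexi 0.79) and in DESeq2 (Dexi 0.79), and 1 to 2 when a library was left out. The share of reads held by the 7 in wild type was 1.25% when reads outside genes entered the total, in place of 1.87%, and 1.83 to 1.96% without 1 library. Without Odf2, an alternative chosen after seeing the data, the elongating spermatid marker sum averaged 8.68 CPM in Stra8-deficient libraries, in place of 100.2 CPM. The cause of the shifts in calls was not tested.

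Replicate numbers did not pair the samples (correlations of deviations 0.0582, 0.0797 and -0.0404 for numbers 1, 2 and 3; 3 of 6 samples correlated best with their own number). With the replicate block, 7 genes were still called lower, 2 linker and testis histones and 1 neighbour were called higher (Dexi 0.77, not called), and calls over all genes numbered 11218.

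Depth limits Prm3 most, since 3 counts allow 0.0362% of its wild-type level.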
